A study of Mus musculus with 12 samples.

Results

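The deposited gene table of this mouse RNA-sequencing series lists 10995 loci that the authors assembled from the reads and typed as new genes, apart from annotated genes and from long noncoding RNA loci. Of these, 966 had no entry in any of the 9 annotation columns of the table, among them NR (a collection of protein sequences), Swiss-Prot, Pfam, GO and KEGG. Reads were assigned to 812 of the 966 in at least 1 library, and 154 were at 0 reads throughout. These 812 loci, called unmatched new loci here, are 812 of the 33625 genes and loci in the table and of the 26299 with any read. The other 10029 new loci had an entry in at least 1 column, 9641 of them had reads, and they are called matched new loci. Neither the choice of the unmatched loci nor that of the matched loci used a measured level beyond the presence of a read.

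Transcript assembly joins reads that fall outside annotated genes into candidate transcribed units, whose predicted sequences are then searched against databases of known proteins and gene families. A unit with no hit can be a noncoding transcript, a short or incomplete piece of a longer one, a stretch of an intron or of the region past a known gene's end, or a transcribed repeat. The names of such units carry no information on function. Sequences, coordinates, lengths and strands of the loci were not used here, so each is given by its name in the table only, and levels were not compared per length.

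RNA came from MODE-K cells, written MODEK in the labels, a wild-type mouse line labelled as small intestine epithelium. The cells were grown in flasks and collected as pellets. The 12 libraries formed 4 groups of 3. Control cells had no treatment (0 Gy, 0 h), and the other groups had received gamma rays from a cobalt source and were harvested 48 h after 4 Gy (4Gy_48h), 24 h after 12 Gy (12Gy_24h) or 48 h after 12 Gy (12Gy_48h). Control cells were collected at 0 h, so time in culture and exposure cannot be told apart in any comparison with control. The labels speak of parallel groups and do not say whether replicates were separate cultures, and p-values then measure only the spread between these libraries. In such bulk RNA, fewer cells that transcribe a locus and less RNA per cell cannot be told apart.

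Library totals ran from 3616416 to 4831641 reads assigned to genes and loci. Control replicate 1 was the deepest library. Of the epithelial markers, Epcam and Cdh1, which hold epithelial cells together, had 2 reads each over all 12 libraries, Krt8 had 10 and Vil1 had 3. The 10 epithelial markers, of which 9 had reads and Cldn7 had 0, summed to 3.97 to 7.24 CPM (reads scaled to a common library total, counts per 1000000) in control and 8.20 to 8.41 CPM after 4 Gy, and after 12 Gy to 14.2 to 18.5 CPM by 24 h and 9.68 to 11.5 CPM by 48 h, nearly all of it from Krt18, Cdx2 and Lgals4. All 8 mesenchymal markers had reads, but over the 12 libraries Thy1 had only 1, Acta2 had 2 and Col3a1 had 8. Nearly all of the sum of the 8 came from Vim (63111 reads) and Col1a2 (11434 reads). This sum was 690 to 1118 CPM in control and 1240 to 1723 CPM after 4 Gy. After 12 Gy it was 2277 to 2723 CPM by 24 h and 1472 to 2009 CPM by 48 h. Of the 6 immune markers, Ptprc, Cd3e and Adgre1 were at 0 and Cd68 was at 10.2 to 39.5 CPM, while the 3 endothelial markers together reached at most 0.830 CPM. Genes for cytosolic ribosomal proteins took 22.7% ± 0.435 of reads in control, 23.6% ± 0.276 at 4Gy_48h, 23.6% ± 0.152 at 12Gy_24h and 21.5% ± 0.370 at 12Gy_48h (mean ± SD, n = 3 in each group). Mitochondrially encoded genes took 0.406% ± 0.0736, 0.337% ± 0.133, 0.517% ± 0.0941 and 0.458% ± 0.0514 in the same order. The epithelial, mesenchymal, immune and ribosomal protein lists differed across the 4 groups (exact permutation p from 6.49e-05 to 0.00143, BH-adjusted p from 0.00039 to 0.00214 over 6 lists). The endothelial (exact permutation p = 0.918, BH-adjusted p = 0.918) and mitochondrial lists (exact permutation p = 0.195, BH-adjusted p = 0.234) missed the threshold. The part of these lists in the results on the unmatched loci was not tested.

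The unmatched new loci were a small and very uneven set. Together they held 152834 reads, or 0.328% of all assigned reads. A single locus, ONT.13402, held 54289 of these, or 35.5%. The 10 loci with most reads held 49.9%, 11 loci held 50% and 304 loci held 90%. The matched new locus with most reads held 293708 reads, or 4.03% of the reads of its class. That class has 9641 loci with reads against 812 here, so the 2 shares do not compare how uneven the classes are. Unevenness is therefore not shown to be particular to the unmatched loci. The median unmatched locus had 46 reads over the 12 libraries, against 75 for matched loci. Of the 812, 34 had a single read in all, 46 had 2 to 9 reads, 732 had at least 10 and 15 had at least 1000. The count filter of the gene-wise test kept 235 of them (28.9%), which held 86.5% of the reads of the set. The same filter kept 48.4% of matched new loci with reads and 64.3% of known genes with reads.

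**Figure D1:**
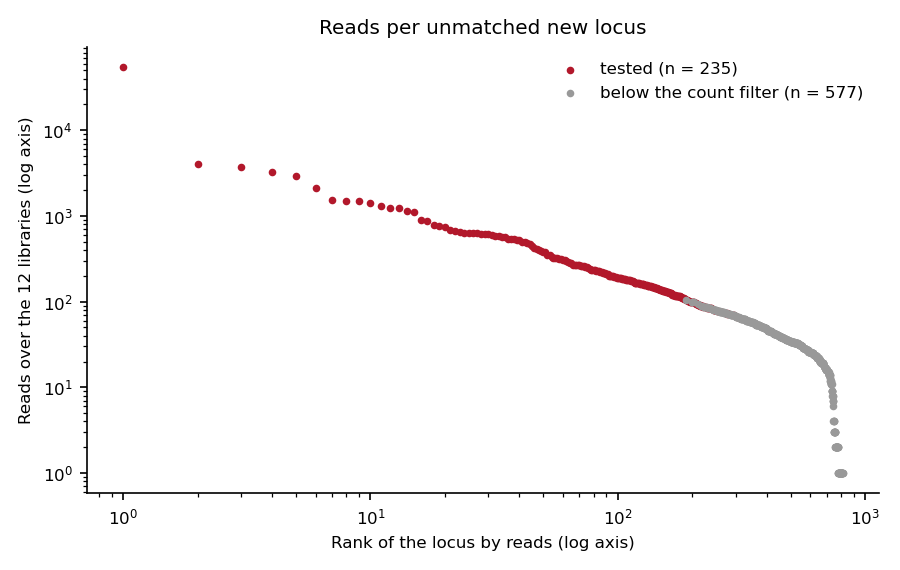
Reads over the 12 libraries (y, log axis) of each of the 812 unmatched new loci against the rank of the locus by reads (x, log axis), with the 235 loci that entered the gene-wise test in red and the others in grey. ONT.13402, at 54289 reads, stands far above the next locus at 4025 reads, and the loci below the filter have few reads each.

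Most of these loci were present in every condition. Reads were found in all 4 groups for 693 loci (85.3%), in 3 groups for 48, in 2 groups for 29 and in 1 group for 42. None of the 42 loci seen in a single group had more than 9 reads. Of the 732 loci with at least 10 reads, 688 (94.0%) had reads in every group. Loci with reads in each of the other groups and 0 in one of them numbered 5 for control, 11 for 4Gy_48h, 21 for 12Gy_24h and 11 for 12Gy_48h. All of the 235 loci tested had reads in every group. Matching counts for all features are not given here, so none of these numbers is shown to be particular to the unmatched loci.

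ONT.13402 was far more abundant than any other locus of the set, and its replicates varied widely. Its level was 1731, 978 and 818 CPM in control, 1222, 1443 and 981 CPM at 4Gy_48h, 980, 713 and 931 CPM at 12Gy_24h, and 1436, 1556 and 1029 CPM at 12Gy_48h. Control replicate 1 was the highest library and 12Gy_24h replicate 2 the lowest, and every irradiated group overlapped control. The locus did not pass the test in any of the 5 comparisons (edgeR adjusted p from 0.160 to 0.934). The size of its change against control was 0.09 ± 0.23 on the log2 scale at 12Gy_48h, -0.35 ± 0.23 at 12Gy_24h and 0.04 ± 0.23 at 4Gy_48h (log2 fold change ± standard error). It held from 27.8% to 44.9% of the reads of the set, with no difference between groups by the exact permutation test over libraries (p = 0.599, BH-adjusted p = 0.599 over 9 tests).

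The share of all reads in the unmatched loci moved little. It was 0.385%, 0.334% and 0.294% in the control libraries and 0.316%, 0.359% and 0.296% in those of 4Gy_48h. The 12Gy_24h libraries had 0.292%, 0.256% and 0.287%, and the 12Gy_48h libraries 0.375%, 0.395% and 0.332%. The 3 libraries of 12Gy_24h were each below the 3 control and the 3 12Gy_48h libraries, and the other groups overlapped control. Across the 4 groups the exact permutation test, over all 369600 arrangements of the libraries, gave p = 0.0727 (BH-adjusted p = 0.0817 over 9 tests), which missed the threshold of 0.05. It passed without control replicate 1 (exact permutation p = 0.0443) and without control replicate 3 (exact permutation p = 0.0405).

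Without ONT.13402 the replicates lay closer together and the share differed across the 4 groups, although some groups still overlapped. The share was then 0.212%, 0.236% and 0.213% in the control libraries and 0.193%, 0.215% and 0.198% in those of 4Gy_48h. For 12Gy_24h it was 0.194%, 0.185% and 0.194%, and for 12Gy_48h 0.231%, 0.239% and 0.229%. The group means were 0.220% ± 0.0139, 0.202% ± 0.0114, 0.191% ± 0.00509 and 0.233% ± 0.00538 (mean ± SD, n = 3), with an exact permutation p = 0.00506 (BH-adjusted p = 0.00912 over 9 tests). All 3 libraries of 12Gy_24h were below all controls, and all 3 of 12Gy_48h were above all of 12Gy_24h and of 4Gy_48h. In contrast, 12Gy_48h overlapped control, and 4Gy_48h overlapped both control and 12Gy_24h. Each of these pairs of non-overlapping groups had an exact permutation p = 0.1, the smallest that 3 against 3 libraries allow. Leaving out ONT.13402 was chosen after its level had been seen.

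**Figure D2:**
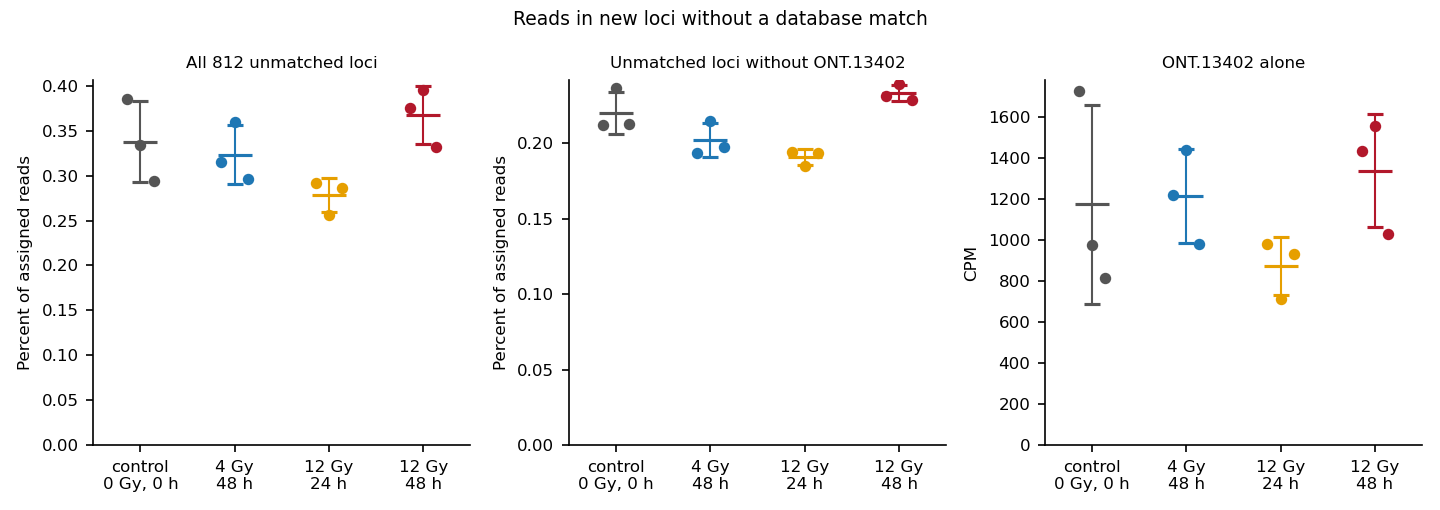
Percent of assigned reads in all 812 unmatched new loci (left), in the loci other than ONT.13402 (middle) and CPM of ONT.13402 alone (right), with 1 point per library and the group mean ± SD (n = 3). Without ONT.13402 the 12Gy_24h libraries lie between 0.185% and 0.194%, below the controls at 0.212% to 0.236%.

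The order of the group means differed between bands of abundance. The 154 loci with at least 120 and under 1000 reads summed to 1046 ± 71.7 CPM in control, 910 ± 32.1 at 4Gy_48h, 797 ± 44.7 at 12Gy_24h and 993 ± 22.1 at 12Gy_48h (mean ± SD, n = 3). The 343 loci with at least 10 and under 50 reads summed to 239 ± 13.9, 187 ± 15.4, 196 ± 10.7 and 249 ± 10.7 CPM in the same order, and the 220 loci with at least 50 and under 120 reads to 373 ± 33.7, 316 ± 25.3, 324 ± 8.28 and 412 ± 27.5 CPM. In all 3 of these bands the means at 4Gy_48h and 12Gy_24h were below those of control and 12Gy_48h. The 14 loci with at least 1000 reads other than ONT.13402 had another order, with 542 ± 33.9 CPM in control, 604 ± 63.7 at 4Gy_48h, 586 ± 36.4 at 12Gy_24h and 674 ± 28.9 at 12Gy_48h. In that band control had the lowest mean. The 80 loci under 10 reads summed to 4.48 ± 1.25 CPM in control and 3.76 ± 0.833 at 4Gy_48h. Their sums were 5.89 ± 0.873 CPM at 12Gy_24h, the highest mean of this band, and 4.47 ± 0.447 at 12Gy_48h. The bands are a description and were not tested.

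Matched new loci, the class of loci most like the unmatched ones, changed more. They took 20.7% ± 1.07 of reads in control, 15.5% ± 0.974 at 4Gy_48h, 11.7% ± 0.0444 at 12Gy_24h and 14.4% ± 0.577 at 12Gy_48h (mean ± SD, n = 3, exact permutation p = 0.00013, BH-adjusted p = 0.00102 over 9 tests). Reads in matched loci per read in unmatched loci were 50.5, 63.8 and 72.2 in the control libraries and 47.7, 41.1 and 56.0 in those of 4Gy_48h. The 12Gy_24h libraries had ratios of 39.8, 45.3 and 40.8, and the 12Gy_48h libraries of 39.4, 37.1 and 41.3. Both 12 Gy groups were below all controls, and 4Gy_48h overlapped control. This ratio, which does not depend on the scaling of libraries, differed across the 4 groups on the log2 scale by the exact permutation test (p = 0.0201, BH-adjusted p = 0.0259 over 9 tests), but not without control replicate 3 (exact permutation p = 0.0528). Against control the log2 ratio of unmatched to matched reads was higher by 0.55 at 12Gy_24h, by 0.65 at 12Gy_48h and by 0.36 at 4Gy_48h.

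Most of the fall of the matched loci was in those that carried the KEGG entry K11969. These 6734 loci with reads fell from 10.6% ± 0.882 of reads in control to 6.38% ± 0.797 in the 4Gy_48h group, 3.20% ± 0.0622 in the 12Gy_24h group and 5.88% ± 0.548 in the 12Gy_48h group (mean ± SD, n = 3, exact permutation p = 0.00039, BH-adjusted p = 0.00102 over 9 tests). The 2907 loci with other matches took 10.0% ± 0.323, 9.09% ± 0.189, 8.45% ± 0.0753 and 8.49% ± 0.0305 in the same order (exact permutation p = 0.00039, BH-adjusted p = 0.00102). Set against these other matches alone, a comparison added after the data had been seen, the ratio no longer passed (exact permutation p = 0.0853), and its difference between 12Gy_24h and control turned to -0.03 on the log2 scale.

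**Figure D3:**
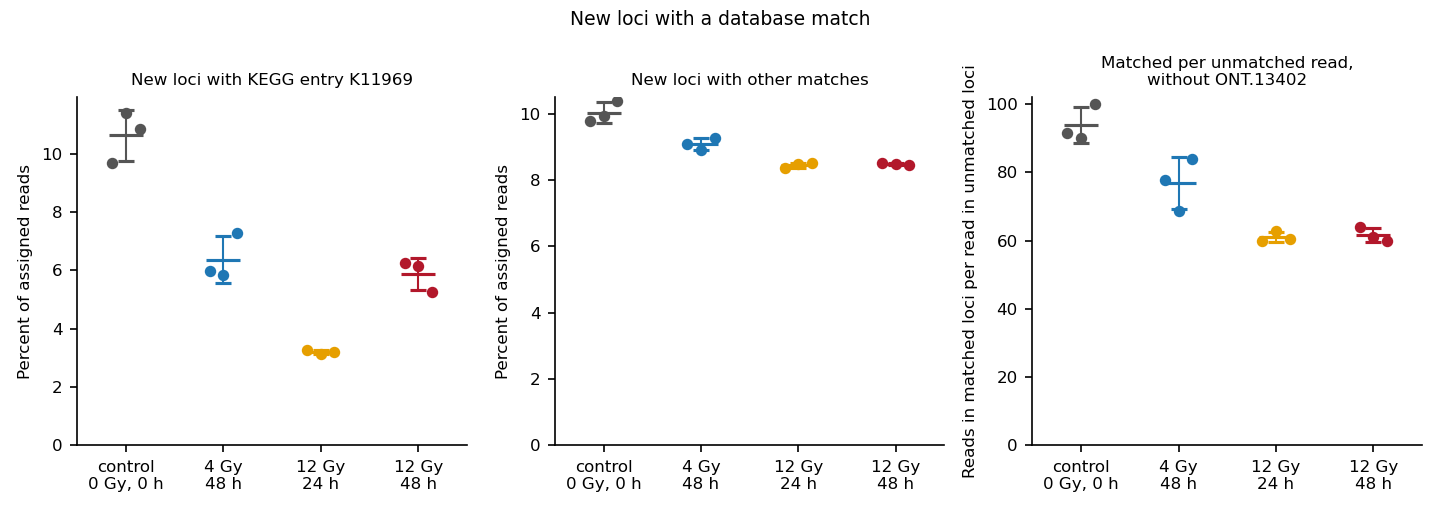
Percent of assigned reads in matched new loci with KEGG entry K11969 (left) and with other matches (middle), and reads in matched loci per read in unmatched loci other than ONT.13402 (right), with 1 point per library and the group mean ± SD (n = 3). The K11969 loci take 9.68% to 11.4% of reads in control and 3.15% to 3.27% at 12Gy_24h, and the ratio goes from 90.2 to 100.02 in control to 59.9 to 62.8 at 12Gy_24h.

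Fewer unmatched loci were detected at 24 h after 12 Gy. With each library thinned to 3616416 reads, the smallest total, the expected number of unmatched loci with a read was 677 ± 15.8 in control, 665 ± 12.3 at 4Gy_48h, 648 ± 3.94 at 12Gy_24h and 684 ± 6.28 at 12Gy_48h (mean ± SD, n = 3). The numbers found without thinning were 688 ± 15.5, 673 ± 11.4, 655 ± 4.73 and 685 ± 5.86. The thinned numbers differed across groups by the exact permutation test (p = 0.0181, BH-adjusted p = 0.0259 over 9 tests), but not without 12Gy_24h replicate 1 (exact permutation p = 0.0506) or replicate 2 (exact permutation p = 0.0654). All 12Gy_24h libraries, at 644 to 652 loci, were below all control and all 12Gy_48h libraries. The matching numbers for all features and for matched loci are not given here. The lower detection at 12Gy_24h is therefore not shown to be particular to the unmatched loci.

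The gene-wise test was run over all 15086 genes and loci that passed the filter, and a locus was called at a Benjamini-Hochberg adjusted p under 0.05. The 235 unmatched loci in it are the abundant part of the set and not the whole of it. Counts under alternative settings or at an unadjusted p are given without the matching share of all features. They show only how far the number of calls moved, and are not set against a background. Their changes spread widely to both sides of 0 in each comparison with control, whereas matched new loci lay mostly below it. With scaling factors taken from known genes only, the median log2 fold change of all features shifted from 0.01 to -0.18 at 12Gy_48h, from 0.01 to -0.23 at 12Gy_24h and from 0.01 to -0.14 at 4Gy_48h against control, so a median near 0 has no firm sign.

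**Figure D4:**
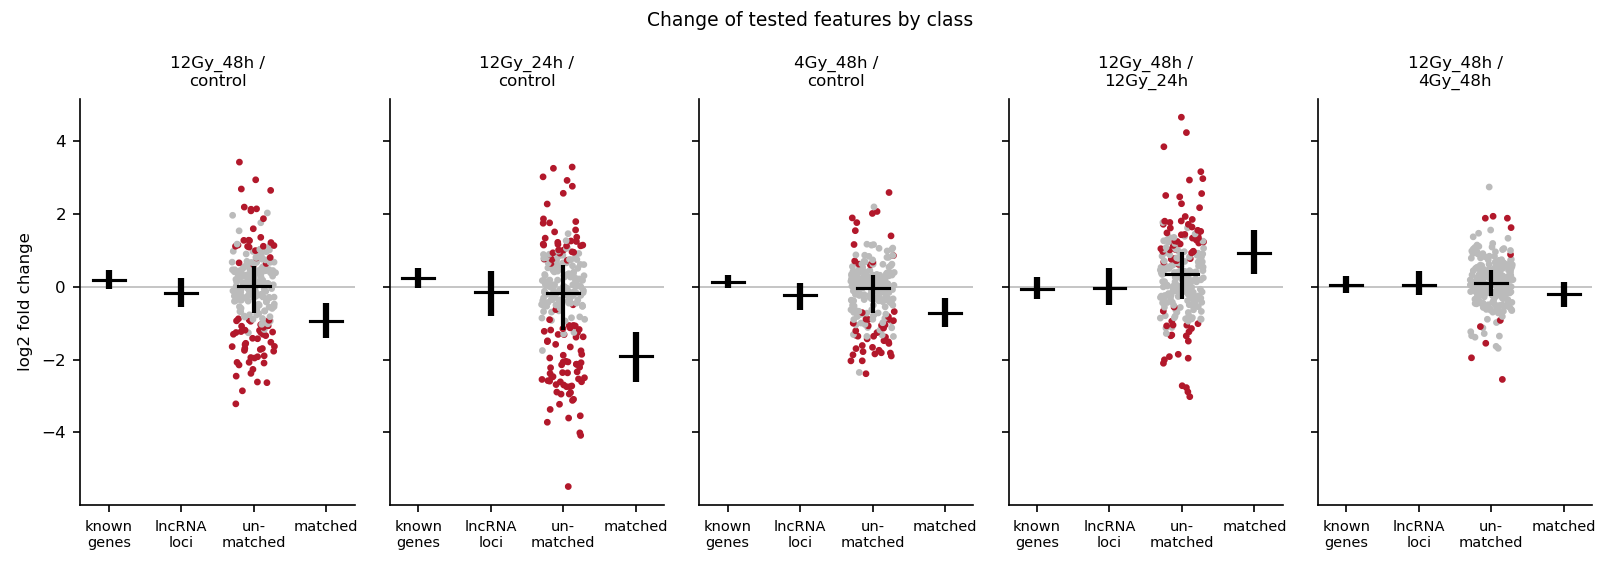
log2 fold change of the tested features in each of the 5 comparisons, with the median (horizontal line) and the quartiles (vertical bar) of known genes, long noncoding RNA loci, unmatched new loci and matched new loci. Each of the 235 tested unmatched loci is a point, red where called, and these points lie on both sides of 0 while the medians of matched loci are -0.93, -1.91 and -0.71 in the comparisons with control.

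At 24 h after 12 Gy, 35 of the 235 tested unmatched loci were higher than in control (14.9%) and 65 were lower (27.7%), against 18.5% and 29.4% of all features tested. Counted in either direction, 42.6% were called against 48.0%, so the shares were near the background. Their median log2 fold change was -0.16, against 0.01 for all features, -0.14 for the 379 tested long noncoding RNA loci and -1.91 for the 4663 tested matched loci, of which 83.4% were lower. With factors from known genes the calls were 24 higher and 78 lower, and with no count filter, so that all 812 loci entered, they were 86 and 114.

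Loci were named from the called ones whose groups did not overlap and whose higher group had a mean of at least 5 CPM, so that larger folds of rarer loci are not described. Within that rule, ONT.8583 and ONT.12929 had the largest rises at 24 h. ONT.8583 stood at 1.66, 6.62 and 2.65 CPM in control and at 12.4, 19.1 and 16.7 CPM at 12Gy_24h, a 4.82-fold rise (log2 fold change 2.27 ± 0.36, edgeR adjusted p = 6.27e-05). ONT.12929 went from 5.38, 6.09 and 2.65 CPM to 11.4, 21.1 and 16.4 CPM, a 3.63-fold rise (log2 fold change 1.86 ± 0.32, edgeR adjusted p = 0.00015). In both, every 12Gy_24h library was above every control. At 48 h after 12 Gy the levels of ONT.8583 were still 17.1, 15.3 and 15.2 CPM, while ONT.12929 was at 6.62, 7.79 and 12.2 CPM and was called lower than at 24 h (log2 fold change -1.05 ± 0.30, edgeR adjusted p = 0.0137). That last call was lost without 12Gy_24h replicate 2 and without 12Gy_48h replicate 1 or 2 (edgeR adjusted p from 0.0518 to 0.0665).

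The deepest falls at 24 h were those of ONT.17227 and ONT.5495. ONT.17227 had 4.55, 7.42 and 4.76 CPM in control and 0, 0 and 0.264 CPM at 12Gy_24h, where it was down to 1 read in the 3 libraries together against 68 in control. The ratio of pooled CPM was 63.5, with an exact 95% counting interval from 11.0 to 2545, and the test gave edgeR adjusted p = 9.56e-05. ONT.5495 had 8.49, 10.9 and 10.3 CPM in control and 0.506, 0.522 and 0.529 CPM at 12Gy_24h (log2 fold change -4.08 ± 0.45, edgeR adjusted p = 1.76e-06). Neither locus had a library at 12Gy_24h that reached the lowest control.

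At 48 h after 12 Gy, 27 of the tested unmatched loci were higher than in control (11.5%) and 45 were lower (19.1%), against 12.9% and 20.2% of all features. In either direction 30.6% were called against 33.1%. The median log2 fold change was 0.03, against 0.01 for all features, -0.18 for long noncoding RNA loci and -0.93 for matched loci. With factors from known genes the calls were 20 higher and 53 lower and the median of the unmatched loci was -0.15. With no count filter they were 66 and 64 of 812.

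ONT.18165 and ONT.10417, both rare loci, had the largest rises at 48 h that met the naming rule. ONT.18165 was at 1.03, 0.794 and 0.265 CPM in control and 6.06, 8.05 and 4.15 CPM at 12Gy_48h (log2 fold change 2.93 ± 0.57, edgeR adjusted p = 0.000986). ONT.10417 was at 1.24, 0.265 and 0.794 CPM in control and 6.06, 3.76 and 7.19 CPM at 12Gy_48h (log2 fold change 2.68 ± 0.43, edgeR adjusted p = 0.000227). The groups did not overlap for either locus, and each had few control reads behind its fold.

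ONT.5495 and ONT.8767 had the largest falls at 48 h that met the naming rule. ONT.5495 was at 0.827, 1.07 and 1.38 CPM at 12Gy_48h, 9.28-fold below the control values above (log2 fold change -3.21 ± 0.40, edgeR adjusted p = 2.23e-05). ONT.8767 had 22.8, 20.7 and 24.1 CPM in control, 10.7, 15.9 and 15.5 CPM at 4Gy_48h, 5.06, 2.61 and 2.64 CPM at 12Gy_24h and 4.96, 4.30 and 2.21 CPM at 12Gy_48h. Its 4 groups fell in an order with control above 4Gy_48h and 4Gy_48h above both 12 Gy groups, which overlapped each other. The fall from control was 6.20-fold at 12Gy_48h (log2 fold change -2.63 ± 0.27, edgeR adjusted p = 5.29e-06) and 6.11-fold at 12Gy_24h (-2.61 ± 0.27, edgeR adjusted p = 1.01e-06). The smaller fall at 4Gy_48h (1.60-fold, edgeR adjusted p = 0.0454) was called only narrowly. That call was lost with no filter (edgeR adjusted p = 0.0509), with a replicate block (edgeR adjusted p = 0.0719) and with DESeq2 (adjusted p = 0.0984). It was also lost without any one control or 4Gy_48h library, without 12Gy_24h replicate 2 and without 12Gy_48h replicate 1 or 2 (edgeR adjusted p from 0.0521 to 0.188).

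At 48 h after 4 Gy, 13 of the tested unmatched loci were higher than in control (5.53%) and 35 were lower (14.9%), against 4.53% and 13.0% of all features. In either direction 20.4% were called against 17.6%. The median log2 fold change was -0.03, against 0.01 for all features and -0.71 for matched loci. These counts were the least stable of the comparisons with control. With factors from known genes they were 8 and 42, with DESeq2 8 and 19, with only the compared groups fitted 7 and 23, and with no filter 24 and 43. Without 4Gy_48h replicate 2 they were 5 and 21 and without 4Gy_48h replicate 1 they were 8 and 20, while without control replicate 3 the number of loci called lower was 17.

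ONT.233 and ONT.19719 had the largest rises after 4 Gy within the naming rule. ONT.233 was at 3.93, 4.50 and 4.50 CPM in control, 11.0, 15.6 and 21.3 CPM at 4Gy_48h, 4.05, 2.35 and 4.49 CPM at 12Gy_24h and 19.8, 13.7 and 26.5 CPM at 12Gy_48h. ONT.19719 was at 5.17, 5.30 and 3.18 CPM in control, 12.5, 15.4 and 18.9 CPM at 4Gy_48h, 5.06, 2.61 and 6.61 CPM at 12Gy_24h and 28.7, 33.8 and 29.3 CPM at 12Gy_48h. Both loci were high in all 6 libraries taken at 48 h and overlapped control in the libraries taken at 24 h. The rises after 4 Gy were 3.70-fold for ONT.233 (log2 fold change 1.89 ± 0.31, edgeR adjusted p = 0.000599) and 3.38-fold for ONT.19719 (1.76 ± 0.27, edgeR adjusted p = 0.000428). Between 12Gy_48h and 12Gy_24h the difference itself was tested and passed for both, at 4.85-fold for ONT.233 (edgeR adjusted p = 7.1e-05) and 5.67-fold for ONT.19719 (edgeR adjusted p = 5.6e-06). Only ONT.19719 of this pair was called higher after 12 Gy than after 4 Gy at 48 h (1.85-fold, edgeR adjusted p = 0.0324) and this call was lost without 4Gy_48h replicate 1 or 2 and without any 12Gy_48h library (edgeR adjusted p from 0.0637 to 0.145), and with a replicate block (edgeR adjusted p = 0.0537).

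Within the naming rule, ONT.17227 and ONT.13397 fell most after 4 Gy. ONT.17227 went to 1.53, 0.497 and 1.07 CPM at 4Gy_48h (log2 fold change -2.39 ± 0.58, edgeR adjusted p = 0.00915), a call that was lost without 4Gy_48h replicate 2 (edgeR adjusted p = 0.0544). ONT.13397 went from 4.97, 8.21 and 6.35 CPM in control to 0.51, 1.24 and 2.93 CPM (log2 fold change -2.03 ± 0.43, edgeR adjusted p = 0.00368). No 4Gy_48h library reached a control in either case. At 12Gy_48h the libraries of ONT.17227 disagreed, with 3.86, 5.37 and 0.553 CPM, and the locus did not pass against control there (log2 fold change -0.83 ± 0.48, edgeR adjusted p = 0.192).

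From 24 h to 48 h after 12 Gy, the shares of loci called were near those of all features. Of the tested unmatched loci, 51 were higher at 48 h than at 24 h (21.7%) and 22 were lower (9.36%), against 20.6% and 11.4% of all features. In either direction 31.1% were called against 32.0%. The median log2 fold change was 0.34, against 0.12 for all features, -0.04 for long noncoding RNA loci and 0.93 for matched loci. The number called higher was 33 without 12Gy_24h replicate 2, and the number called lower was 14 without 12Gy_48h replicate 2 and 47 with no filter.

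ONT.18165 and ONT.13847 had the largest rises from 24 h to 48 h that met the naming rule. ONT.18165 had 3 reads in the 12Gy_24h libraries together, at 0, 0.261 and 0.529 CPM, and 67 in the 12Gy_48h libraries. The ratio of pooled CPM was 23.6 with an exact 95% counting interval from 7.72 to 117, and the test gave edgeR adjusted p = 0.000334. ONT.13847 was at 7.04, 10.6 and 9.79 CPM in control, 8.15, 5.46 and 9.87 CPM at 4Gy_48h, 0.759, 0.522 and 1.59 CPM at 12Gy_24h and 10.5, 10.7 and 8.30 CPM at 12Gy_48h. It was thus low in the 3 libraries of 12Gy_24h alone, 8.69-fold below control (edgeR adjusted p = 5.06e-06), and 8.91-fold higher at 48 h than at 24 h (log2 fold change 3.16 ± 0.38, edgeR adjusted p = 2.25e-05). At 12Gy_48h it did not differ detectably from control (log2 fold change 0.04 ± 0.26, edgeR adjusted p = 0.927).

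ONT.16865 and ONT.21632, the largest falls within the rule, had the opposite course, with their highest group mean at 24 h. ONT.16865 was at 6.21, 5.03 and 9.53 CPM in control, 6.88, 10.4 and 8.54 CPM at 4Gy_48h, 16.4, 18.3 and 32.5 CPM at 12Gy_24h and 3.58, 1.34 and 4.42 CPM at 12Gy_48h. All 12Gy_24h libraries were above, and all 12Gy_48h libraries below, every control. It was 8.10-fold lower at 48 h than at 24 h (log2 fold change -3.02 ± 0.37, edgeR adjusted p = 2.51e-05). ONT.21632 was at 2.48, 4.77 and 4.76 CPM in control, 6.58, 7.31 and 5.29 CPM at 12Gy_24h, and 0.827, 1.61 and 3.04 CPM at 12Gy_48h, 3.90-fold lower at 48 h than at 24 h (log2 fold change -1.96 ± 0.42, edgeR adjusted p = 0.00244). At 4Gy_48h it was also low, at 0.255, 1.49 and 1.33 CPM.

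The 2 doses at 48 h differed in few loci. Of the tested unmatched loci, 5 were higher after 12 Gy than after 4 Gy (2.13%) and 5 were lower (2.13%), against 2.19% and 2.49% of all features and, in either direction, 4.26% against 4.69%. At an unadjusted p under 0.05 the edgeR test gave 26 higher and 20 lower. The matching share of all features is not given here, so these are not shown to be an excess. DESeq2 called 2 and 3 after adjustment. Leaving out 1 library at a time gave 1 to 6 higher and 1 to 5 lower, and with no filter 12 were higher. ONT.4234 was at 1.53, 2.24 and 1.60 CPM at 4Gy_48h and 4.96, 9.40 and 7.74 CPM at 12Gy_48h (log2 fold change 1.93 ± 0.49, edgeR adjusted p = 0.0341), a call lost without any 4Gy_48h library and without 12Gy_48h replicate 2 or 3 (edgeR adjusted p from 0.0694 to 0.155). Its 3 controls, at 7.86, 9.27 and 1.85 CPM, overlapped both groups. Against control it was called lower at 4Gy_48h (log2 fold change -1.81 ± 0.49, edgeR adjusted p = 0.0181). That call was lost without control replicate 1 or 2 and without 4Gy_48h replicate 1 (edgeR adjusted p from 0.0612 to 0.0833). At 12Gy_48h it was not called against control (log2 fold change 0.12 ± 0.39, edgeR adjusted p = 0.840). ONT.8583 was at 5.10, 1.99 and 5.07 CPM at 4Gy_48h, 3.68-fold below 12Gy_48h (edgeR adjusted p = 0.00986). Against 4 Gy, 12Gy_48h was lower for ONT.8767 by 3.87-fold (edgeR adjusted p = 0.0028) and for ONT.16865 by 2.93-fold (edgeR adjusted p = 0.0413). The call of ONT.16865 was lost without any library of either group and without 12Gy_24h replicate 2 (edgeR adjusted p from 0.0514 to 0.193).

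**Figure D5:**
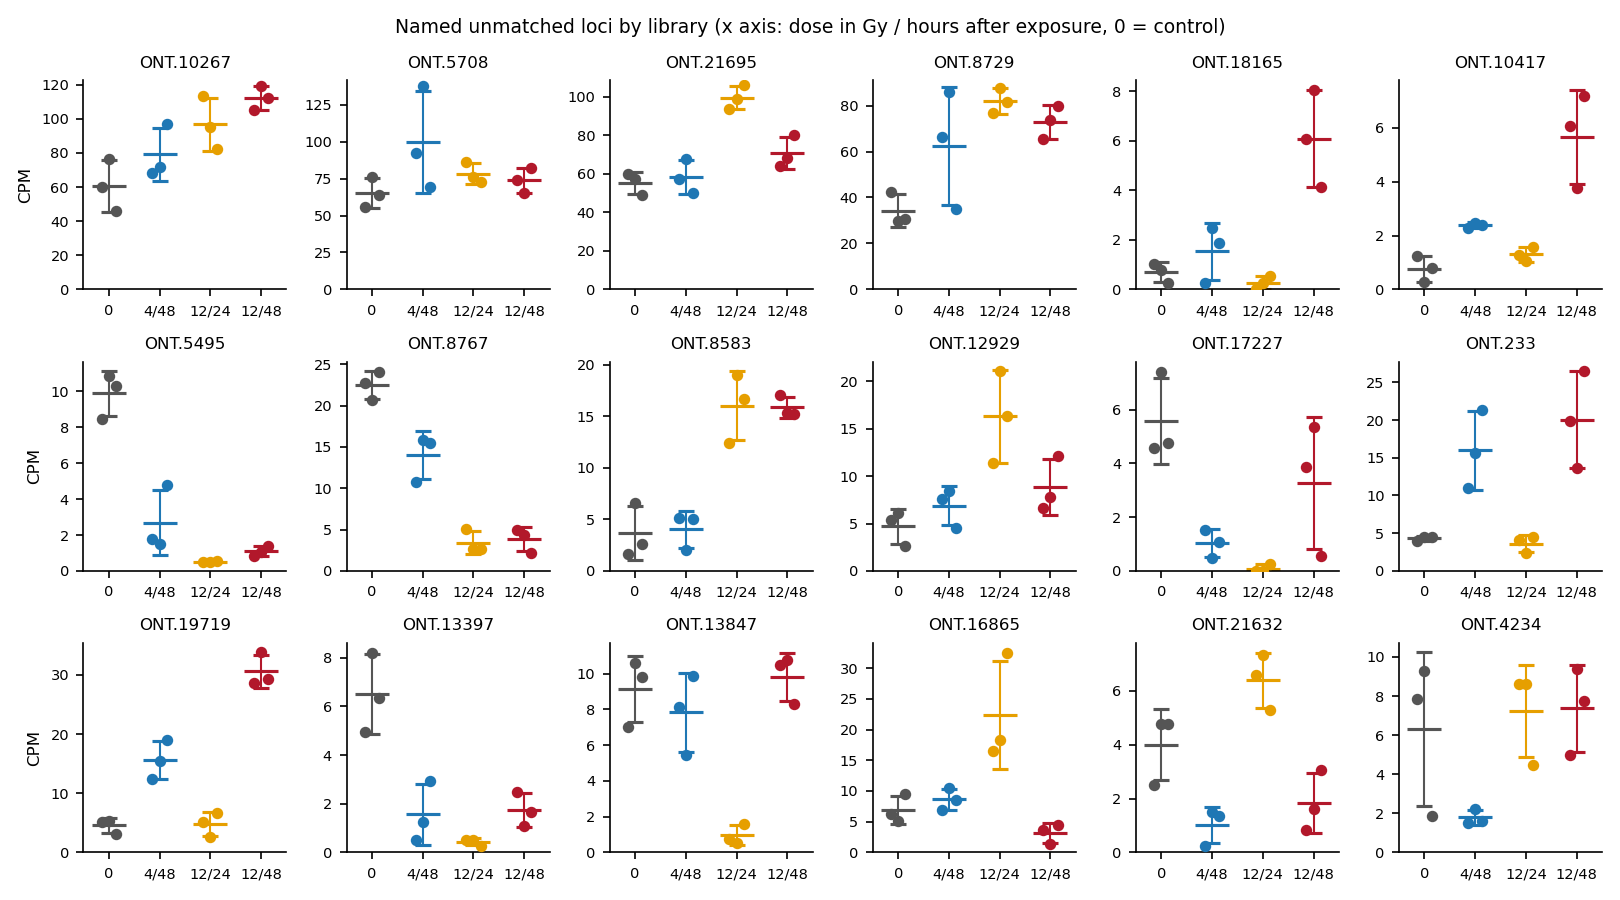
CPM by library for the 18 named unmatched loci other than ONT.13402, with 1 point per library and the group mean ± SD (n = 3), and with groups marked as dose in Gy and hours after exposure (0 for control). ONT.233 and ONT.19719 are high in both 48 h groups, ONT.13847 is low at 12Gy_24h alone, and ONT.5495 and ONT.8767 are low in the irradiated groups.

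Below ONT.13402, the 4 most abundant loci were higher in some or all irradiated groups. ONT.10267 was at 60.0, 76.3 and 46.0 CPM in control, 68.3, 71.8 and 97.1 CPM at 4Gy_48h, 113, 95.0 and 82.2 CPM at 12Gy_24h and 105, 119 and 112 CPM at 12Gy_48h. It was called higher against control at 12Gy_24h (1.69-fold, edgeR adjusted p = 0.00139) and 12Gy_48h (1.74-fold, edgeR adjusted p = 0.00192), where no library overlapped control. ONT.21695 was at 60.0, 57.2 and 49.0 CPM in control and at 93.6, 98.9 and 106 CPM at 12Gy_24h, a 1.91-fold rise (edgeR adjusted p = 4.01e-05), and its 12Gy_48h libraries were again lower, at 63.9, 67.9 and 80.2 CPM. The change from 24 h to 48 h was called (log2 fold change -0.67 ± 0.14, edgeR adjusted p = 0.00187).

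ONT.8729 was higher than control in all 3 irradiated groups, but not evenly. It was at 42.4, 29.9 and 30.4 CPM in control, 66.3, 85.9 and 34.9 CPM at 4Gy_48h, 76.6, 87.7 and 81.4 CPM at 12Gy_24h and 65.3, 73.6 and 79.9 CPM at 12Gy_48h. The rise was 2.52-fold at 12Gy_24h (edgeR adjusted p = 0.000193) and 1.99-fold at 12Gy_48h (edgeR adjusted p = 0.00447), with no overlap. ONT.5708 was at 55.9, 76.0 and 64.0 CPM in control, 92.2, 138 and 69.6 CPM at 4Gy_48h, 86.2, 76.2 and 72.7 CPM at 12Gy_24h and 73.9, 65.5 and 82.4 CPM at 12Gy_48h. It was called in the comparison of 4Gy_48h with control (1.54-fold, edgeR adjusted p = 0.0296), where the groups overlapped. The call was lost without control replicate 1 or 3 and without 4Gy_48h replicate 1 or 2 (edgeR adjusted p from 0.0524 to 0.192), with factors from known genes (edgeR adjusted p = 0.0876) and with only the compared groups fitted (edgeR adjusted p = 0.0672). The call of ONT.8729 at 4Gy_48h (1.81-fold, edgeR adjusted p = 0.0201) was lost without control replicate 2 or 3 and without 4Gy_48h replicate 1 or 2 (edgeR adjusted p from 0.0646 to 0.131).

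The authors' deposited table gives adjusted p-values and log2 fold changes of their own DESeq2 comparisons for some of the unmatched loci. At an adjusted p under 0.01 and a fold of at least 1.5, the authors' deposited table has 16 of these loci higher and 21 lower at 12Gy_48h against control, of 474 with a value. The authors' deposited table has 19 higher and 56 lower of 440 at 12Gy_24h, and 4 higher and 9 lower of 443 at 4Gy_48h. For 48 h against 24 h after 12 Gy it lists 18 higher and 12 lower of 442 in the authors' deposited table, and for 12 Gy against 4 Gy at 48 h it lists 3 and 1 of 442. The shares of all features at these thresholds are not given here, so these counts are not set against a background.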

How the data were processed

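RNA of 12 libraries, 3 for each of 4 groups, was measured. Groups and replicate numbers came from the labels. The submitters' processing notes name cutadapt 1.9, an adapter trimmer, and FastQC, a read checker, and libraries followed an Illumina protocol, per the labels' protocols. The locus names, however, begin with ONT and look like those of an assembly of long reads. The sources used do not settle this difference. The assembler, the aligner, the strand setting of counting, the annotation and its genome build are not given in the sources used. Without strand, reads of a locus and of an overlapping gene cannot be told apart. Reads of near-identical loci may have been split or shared, which the sources do not settle.

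The deposited table holds read counts per gene and locus as whole numbers, and CPM that the authors computed from the counts. Other values in it, which the authors made with DESeq2, are log2 fold changes and adjusted p for their comparisons, and no test here used them. Of its 33636 lines, 11 only continued an annotation text cut off on the line before and were left out. All shares and CPM printed here were recomputed from the counts and library totals, without TMM scaling.

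Counts of all genes and loci went into a two-sided quasi-likelihood test (edgeR 4.0.16, R 4.3.3) with TMM scaling, the filterByExpr filter, all 12 libraries and 1 mean per group, with Benjamini-Hochberg adjustment over the 15086 features tested, in 5 comparisons. The biological coefficient of variation was 0.144. Single values per library were compared across groups by an exact permutation test of the between-group sum of squares, whose p-values were adjusted over 9 tests. Intervals are exact (Clopper-Pearson) and cover counting error only. The figures were drawn with matplotlib 3.10.9.

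Loci were named by rule: the 5 with the highest mean CPM, and in each comparison the 2 largest rises and the 2 largest falls among called loci whose groups did not overlap and whose higher group had a mean of at least 5 CPM. The loci, lists and tests were chosen with earlier results of these data known. Alternatives were no filter, stricter filters, other scalings, DESeq2 1.42.0, a replicate block, only the groups compared, and leaving out each library. A list of 5 nuclear noncoding RNAs stood beside the markers, and none was found in the table by symbol.

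No 2 libraries of a group agreed within counting error, since the chi-square per feature was 1.79 to 8.89.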

Additional observations from a re-analysis of the deposited data

Results flagged for a closer look

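Among the tested unmatched loci, 2 had called changes of opposite direction against control at 24 h and at 48 h after 12 Gy, with the difference between the times itself called. How many of all features tested had such opposite calls is not given here, so the 2 are described as single loci only. ONT.16865 was higher than control at 12Gy_24h (log2 fold change 1.79 ± 0.32, edgeR adjusted p = 0.00022) and lower at 12Gy_48h (-1.23 ± 0.42, edgeR adjusted p = 0.0341), with a log2 fold change of -3.02 between the times. The call at 48 h was lost without control replicate 1 or 3 and without 12Gy_48h replicate 1 or 2 (edgeR adjusted p from 0.0547 to 0.165).

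ONT.17540 went the other way. This locus was named after its values had been seen, since the naming rule does not reach it. It was at 22.6, 16.7 and 20.9 CPM in control, 36.4, 32.0 and 28.0 CPM at 4Gy_48h, 8.60, 8.61 and 9.78 CPM at 12Gy_24h and 31.1, 37.9 and 31.0 CPM at 12Gy_48h, and no irradiated group overlapped control. It was lower than control at 12Gy_24h (log2 fold change -1.08 ± 0.19, edgeR adjusted p = 0.000189) and higher at 12Gy_48h (0.64 ± 0.17, edgeR adjusted p = 0.00753), with a log2 fold change of 1.71 between the times (edgeR adjusted p = 7.64e-06). The controls are shared by both comparisons with control, so only the difference between the 2 times rests on separate libraries.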

How the results depend on the processing

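The share of all reads in the unmatched loci, which missed the threshold across the 4 groups (exact permutation p = 0.0727), passed without ONT.13402 (p = 0.00506), without the 10 loci with most reads (p = 0.0013) and with only the reads of known genes and unmatched loci as the total (p = 0.0235). Leaving out 1 library at a time gave exact permutation p from 0.0405 to 0.197 for this share, from 0.0140 to 0.0528 for the ratio to matched loci and from 0.00474 to 0.0654 for the loci detected at equal depth. Against matched loci without K11969 the ratio did not pass (exact permutation p = 0.0853) and its difference between 12Gy_24h and control was -0.03 on the log2 scale.

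With no count filter, more loci entered and the calls against control were 66 higher at 12Gy_48h, 86 higher and 114 lower at 12Gy_24h, and 24 higher at 4Gy_48h. From 24 h to 48 h after 12 Gy 47 were then lower, and 12 were higher after 12 Gy than after 4 Gy. Where only features with a group mean of 5 CPM or more were tested, 23 were higher at 12Gy_24h. For 4Gy_48h against control the number higher was 8 with a mean of at least 10 reads over all libraries, 8 with factors from known genes, 8 with DESeq2 (19 lower) and 7 with only the compared groups fitted (23 lower). Between doses DESeq2 called 2 higher and 3 lower. The causes of these differences were not tested.

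Leaving out 1 library at a time gave 5 to 15 higher and 17 to 38 lower at 4Gy_48h against control, 33 to 63 higher and 14 to 26 lower at 48 h against 24 h after 12 Gy, and 1 to 6 higher and 1 to 5 lower between doses. The counts of the 12 Gy groups against control stayed within 1.5 times. The 49 called results of named loci kept their direction in all 1014 alternatives run. They lost the call in 70 and kept it in 944, and 36 of the 49 kept it throughout. Most of these loci were named for a call without overlap in the same counts. A kept direction was therefore largely given beforehand and is no separate support.

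No pairing of libraries by replicate number was seen. Deviations from the group means correlated at -0.11 to 0.12 for libraries of the same number and -0.13 to 0.17 for others. With 3 libraries a group, this cannot show that the libraries were unpaired. With the replicate number as a block the share of reads passed (exact permutation p = 0.0451), 2 loci were higher between doses, and the other counts were within 1.5 times.

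Depth limits the rare loci most, since the median locus had 46 reads over 12 libraries and only 235 of the 812 entered the gene-wise test. CPM is relative, so a fall in one class raises the share of the others. Without sequence, position or length, a locus that is part of a longer transcript was not told from one that stands alone. With 3 libraries a group, an exact test between 2 groups cannot go below 0.1.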
